A study of Homo sapiens with 12 samples.

Results

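The BCL2 family of apoptosis regulators was examined at the mRNA level in MOLM13, a human acute myeloid leukaemia (AML) cell line, after genetic inactivation of YBX1. The members were the 10 genes BCL2, MCL1, BCL2L1, BAX, BAK1, BCL2L11, BBC3, PMAIP1, BID and BAD, matched by symbol among the 19755 protein-coding genes of the deposited expression table. All 10 were present under 1 identifier each, and all 10 were among the 10982 genes with a mean level of at least 4 that were tested.

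Blasticidin at 5 µg/ml had selected for stable expression of Cas9. The cells were transduced by lentivirus with a vector lacking a YBX1 guide (control) or with 1 of 2 single-guide RNAs against YBX1 (sgRNA1, sgRNA2), treated with puromycin at 1 µg/ml, sorted for high red fluorescence and collected on day 7. Each group held 4 libraries that carry the replicate numbers 1 to 4 in their labels, giving 12 in all. The control is described both as an empty vector and as non-targeting. Under either description only the cells with a YBX1 guide were meant to be cut. A response to DNA cutting by itself and a response to the loss of YBX1 therefore cannot be told apart. Nothing in the labels states that replicates came from separate cultures, and p-values then measure only the spread between these libraries. Levels are rlog values, the regularised log2 counts made with DESeq2, in which a difference of 1 is a doubling and differences of weakly expressed genes are shrunken.

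BCL2 proteins decide whether the outer mitochondrial membrane is opened during apoptosis. The survival proteins BCL2, MCL1 and BCL-XL (encoded by BCL2L1) hold the pore-forming effectors BAX and BAK1 in check. The BH3-only proteins BIM (BCL2L11), PUMA (BBC3), NOXA (PMAIP1), BID and BAD carry stress signals to this system by binding survival proteins, and some also engage the effectors directly. Myeloid leukaemia cells commonly depend on BCL2 or MCL1, and the drug venetoclax binds BCL2. YBX1 binds mRNA through its cold-shock domain and takes its name from the Y-box, a promoter element with the core ATTGG.

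YBX1 mRNA was lower in every library with a guide. The mean rlog level was 12.86 ± 0.09 in control, 11.18 ± 0.14 with sgRNA1 and 11.93 ± 0.10 with sgRNA2 (SD, n = 4 each). With sgRNA1 the level was 31.3% of control and with sgRNA2 52.6%, each at p = 0.0286 in an exact two-sided permutation test over 70 arrangements, the smallest value this design allows. For both guides together YBX1 differed from control by -1.30 on the log2 scale and was at 40.6% of its level there (exact two-sided permutation p = 0.00404 over 495 arrangements). The 9 myeloid genes looked up had mean levels between 8.94 and 12.3. The 9 markers of other cell types reported here had a mean level under 4. Sequencing depth is unknown, since no read counts were analysed here.

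The ATTGG core was searched on both strands of the promoter windows of RefSeq (250 bases before to 50 after each start, GRCh38.p14), because it is the element after which YBX1 is named. Of the 10 members 9 had a window, and MCL1 had none in the table. The core was in 6 of the members' 15 windows, some of which overlap, against 34.6% of all 35116 windows of 300 bases. Counted by gene, 5 of 9 members had it in any window, against 39.7% of all 27305 genes. It was found for BAX, BAK1, BCL2L11, BBC3 and BAD, and not for BCL2, BCL2L1, PMAIP1 or BID. The sites upstream of a RefSeq start are shown here to give the letters around each core. Each is read on the strand that carries ATTGG, in capitals, with 12 bases on either side. Distances are to 1 RefSeq start. BAD has another window with the same site, for which the distance differs. In the gene annotation used below for exon lengths, the sites of BCL2L11 and BBC3 lie within the gene.
BCL2L11, chr2:111120844-111120872, plus strand, 56 bases before the start: gggtccgcagtgATTGGgcgtaggagcgg
BAX, chr19:48954660-48954688, plus strand, 201 bases before the start: attagagctgcgATTGGacggacggctgt
BAX, chr19:48954715-48954743, plus strand, 146 bases before the start: cgggagatgctcATTGGacagtcacgtga
BAK1, chr6:33580462-33580490, minus strand, 200 bases before the start: cctgggttttttATTGGtattgattgatg
BBC3, chr19:47232738-47232766, minus strand, 85 bases before the start: gaggcgattgcgATTGGgtgagacccagt
BAD, chr11:64284725-64284753, minus strand, 35 bases before the start: ttccgagaggtgATTGGgccaggtcgctg
A second match in the BAK1 window lies 30 bases after the start. A match of these letters is a description of the sequence and not a measured binding site. The E-box CACGTG, the core bound by MYC, was present for BAX, BBC3 and BID, in 4 of the 15 windows (7.26% of all windows) and in 3 of 9 members (8.77% of all genes).

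BCL2 was the member that differed most between the groups. In control its rlog level was 10.60, 10.65, 10.68 and 10.31 in numbers 1 to 4. With sgRNA1 it was 10.38, 10.47, 10.41 and 10.21, and with sgRNA2 it was 10.43, 10.43, 10.16 and 10.17. Control libraries 1 to 3 lay above all 8 libraries with a guide, whereas control library 4 lay among them, so that the groups overlapped. Each library with a guide was nonetheless lower than the control of the same number, in 8 of 8 differences, by 0.10 to 0.52. Both guides were set against the same control library of each number, so these are not 8 separate comparisons. The smallest difference was that of sgRNA1 in number 4 and the largest that of sgRNA2 in number 3.

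The mean BCL2 level was 0.23 lower with both guides than in control (SE 0.08, 95% interval -0.40 to -0.06), or 85.3% of control. In limma without a term for the replicate number this did not pass the threshold (adjusted p = 0.450, unadjusted p = 0.00992). With the replicate number as a block the same difference had an SE of 0.05 and an interval of -0.32 to -0.14, and BCL2 fell at an adjusted p of 0.00639 (limma, Benjamini-Hochberg over 10982 genes). In the same fit 5.4% of all genes tested passed in either direction and 2.87% fell, and of the 10 members BCL2 alone passed. The call was kept in 15 of 16 blocked fits that left out 1 library or 1 number, with adjusted p from 0.000284 to 0.0584. It was lost without control library 3, where BCL2 was 0.18 lower (SE 0.047) at an adjusted p of 0.0584 (limma). Without the whole of number 3 the same difference had an SE of 0.035 and was called (adjusted p = 0.00680 in limma). With the block, leaving out a control library gave the same difference as leaving out its number. The 16 fits are therefore not 16 separate checks, here and for the genes counted this way below. The number of genes called with the block itself ranged from 110 without number 1 to 1017 without sgRNA2 library 3, against 593 with all libraries.

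Both guides showed the lower BCL2 level. With sgRNA1 BCL2 was 0.20 lower (SE 0.09, adjusted p = 0.917 in limma), and with the block it fell by 0.20 (SE 0.05, adjusted p = 0.0333 in limma, where 3.21% of genes passed and 1.83% fell). With sgRNA2 it was 0.26 lower (SE 0.09, adjusted p = 0.812 in limma), and with the block it fell by 0.26 (SE 0.05, adjusted p = 0.00407 in limma, where 3.95% of genes passed and 1.78% fell). The comparisons of the guides share their control libraries. Tested directly, sgRNA2 differed from sgRNA1 by -0.07 (95% interval -0.27 to 0.13, and -0.17 to 0.03 with the block, adjusted p = 1.00 and 0.821 in limma). The YBX1 mRNA levels of the sgRNA1 libraries all lay below those of the sgRNA2 libraries, and BCL2 was not called different between the guides. YBX1 protein was not measured in these libraries, so the mRNA levels do not rank the guides by loss of the protein. With the block and 1 number left out, the sgRNA2 call was kept in 4 of 4 fits, and the sgRNA1 call in 1 of 4, that without number 3. It was lost without number 1 (adjusted p = 0.216 in limma), number 2 (0.104) and number 4 (0.0605).

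**Figure D1:**
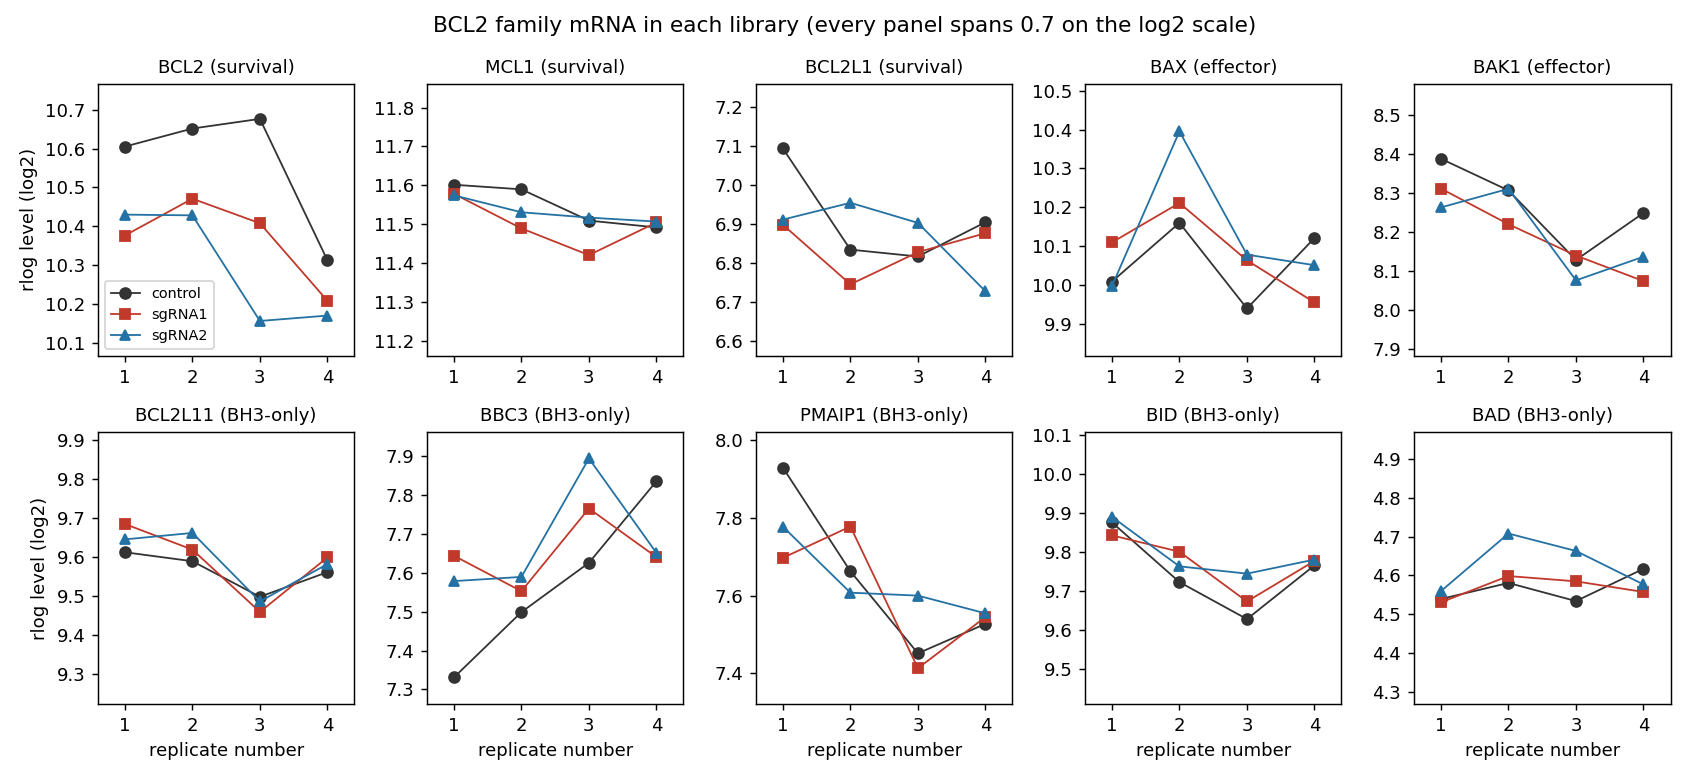
The rlog level (log2) of the 10 members is plotted against replicate number for control (black circles), sgRNA1 (red squares) and sgRNA2 (blue triangles), 1 point per library, with every panel spanning the same width. BCL2 is lower than control in both guide groups at each of the 4 numbers, and the lines of the other 9 members meet or cross.

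The other survival genes differed little. MCL1, a short-lived protein on which many AML cells rely, had levels of 11.60, 11.59, 11.51 and 11.49 in control, 11.58, 11.49, 11.42 and 11.50 with sgRNA1, and 11.57, 11.53, 11.52 and 11.51 with sgRNA2. Its groups overlapped within a range of 0.18 over all 12 libraries. The difference for both guides was -0.03, with a 95% interval of -0.12 to 0.05 that narrowed to -0.10 to 0.03 with the block. On the rlog scale the interval without the block corresponds to 92.0% to 104% of control, given only the spread between these libraries. BCL2L1 had levels of 7.09, 6.83, 6.82 and 6.90 in control, with a guide range of 6.73 to 6.95. Only control library 1 stood above the libraries with a guide. The difference was -0.06 (95% interval -0.18 to 0.07, adjusted p = 0.921 in limma), and it was 0.004 without control library 1.

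The effectors showed no call. BAX was 10.01, 10.16, 9.94 and 10.12 in control, 10.11, 10.21, 10.06 and 9.96 with sgRNA1, and 10.00, 10.40, 10.08 and 10.05 with sgRNA2. The groups overlapped, and number 2 was the highest in each of them. The difference was 0.05 (95% interval -0.10 to 0.20, adjusted p = 0.954 in limma). Single libraries moved it, to 0.009 without sgRNA2 library 2, to 0.01 without control library 3 and, with the block, to 0.11 without control library 4. BAK1 lay between 8.13 and 8.39 in control and between 8.07 and 8.31 with a guide, and was lower than the control of its number in 6 of 8 differences. Its difference of -0.08 had the smallest adjusted p among the 9 members other than BCL2 (0.876 in limma, and 0.275 with the block, 95% interval with the block -0.16 to 0.004). Reads of BAK1 may be shared with its processed pseudogenes BAK1P1 and BAK1P2, so its level is uncertain to that degree.

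Among the BH3-only genes, BBC3 (PUMA) had the largest difference. It was 7.33, 7.50, 7.63 and 7.83 in control, 7.64, 7.55, 7.76 and 7.64 with sgRNA1, and 7.58, 7.59, 7.89 and 7.65 with sgRNA2. In numbers 1 to 3 all 6 libraries with a guide were higher than their control, by 0.05 to 0.31, and in number 4 both were lower, by 0.19 and 0.18. The mean difference was 0.09 (95% interval -0.08 to 0.27, adjusted p = 0.896 in limma, and 0.376 with the block). Leaving out control library 4 with the block gave 0.19 at an adjusted p of 0.0360 (limma), and leaving out control library 1 with the block gave 0.03 at 0.878. BBC3 passed in 1 of 16 such fits, and single control libraries moved its size.

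None of the remaining BH3-only genes passed in either fit. PMAIP1 (NOXA, a partner of MCL1) had 4 lower and 4 higher same-numbered differences and a mean difference of -0.02. Without the block its SE was the largest of the 10 members (0.08, 95% interval -0.20 to 0.16). The sign of the PMAIP1 difference depended on single libraries, and the difference was 0.07 without control library 1. BCL2L11 (BIM) was higher in 6 of 8 differences with a mean of 0.03 (95% interval -0.08 to 0.13). BID, which caspase-8 cleaves to link death receptors with mitochondria, was higher in 7 of 8 differences with a mean of 0.04 (95% interval -0.07 to 0.14). BAD, which survival kinases silence by phosphorylation, was the weakest member at 4.53 to 4.62 in control and 4.53 to 4.71 with a guide. Its difference was 0.03 (95% interval -0.05 to 0.11), on a scale that shrinks weak genes most.

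Counted over the family, 0 of 10 members passed without the block for both guides in limma, where 0.1% of all genes passed (11 of 10982). At an unadjusted p under 0.05 there was 1, BCL2, against 7.48% of all genes, and with the block 1 passed after adjustment. Without the block 0 passed for sgRNA1 (background 0.0455%), 0 for sgRNA2 (0.0364%) and 0 for sgRNA2 against sgRNA1 (0.00911%, also with the block). At an unadjusted p under 0.05 these counts were 0, 1 and 0, against 5.50%, 5.35% and 0.838% of all genes. The median difference of the members was 0.003, against -0.006 over all genes tested. The 9 members other than BCL2 lay between -0.08 and 0.09, and their 95% intervals together spanned -0.21 to 0.27 without the block and -0.16 to 0.21 with it. One member was lower than its same-numbered control in all 8 differences (6.25% of all genes were), and 0 were higher in all 8 (4.33% of all genes). In 0 of 10 did the control and guide libraries not overlap, against 1.21% of all genes.

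**Figure D2:**
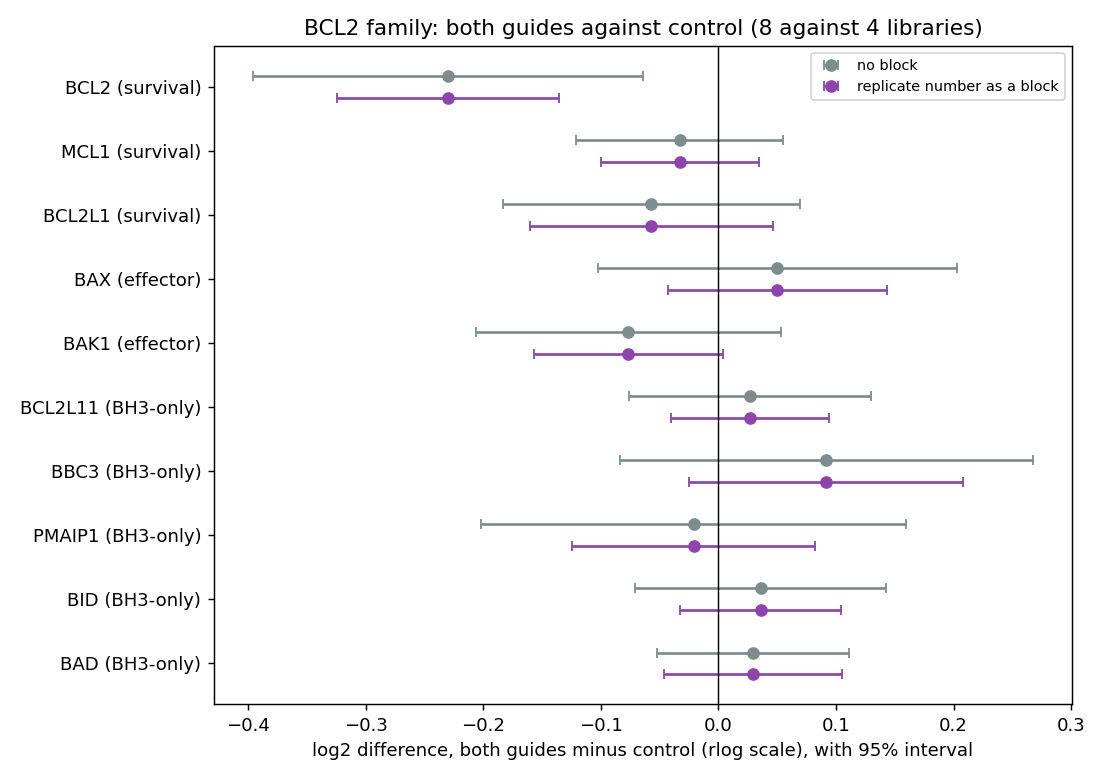
The log2 difference of each member between both guides (8 libraries) and control (4 libraries) is shown as a point with its 95% interval, in grey without and in purple with the replicate number as a block. The intervals of BCL2 lie below 0 in both fits, and those of the other 9 members include 0. The intervals are not adjusted for the number of genes tested, and without the block BCL2 did not pass (adjusted p = 0.450 in limma).

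Replicate number accounted for more of the variation than the guides did in most members. In a decomposition of each gene's sum of squares over the 12 libraries, the number took a larger share than the group in 9 of 10 members. The exception was BCL2, with 43.8% for the group, 41.2% for the number and 15.0% for the rest. The medians over all genes tested were 57.4% for the number and 11.0% for the group, so a larger share for the number is not particular to the members. How many of all genes had it was not counted. The number also has more levels than the group, which by itself raises its share. The number took 87.7% for BCL2L11, 82.6% for BID, 74.1% for PMAIP1 and 73.8% for BAK1. For BCL2L11 all libraries of number 3 (9.46 to 9.50) lay below those of the other 3 numbers (9.56 to 9.69), whatever the group. BAD had the second largest group share at 29.5%, beside 35.7% for its number.

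Most members were lower in numbers 3 and 4 than in numbers 1 and 2, in 8 of 10, against 54.3% of all genes tested. The difference was -0.23 for PMAIP1, -0.17 for BCL2 and -0.17 for BAK1. BBC3 went the other way and was 0.20 higher in numbers 3 and 4. BAD was level at 0.003. What the numbers mean is not given in the labels. Numbers 1 and 2 alone gave a BCL2 difference of -0.20 and numbers 3 and 4 alone one of -0.26 (adjusted p = 0.264 and 0.304 in limma).

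**Figure D3:**
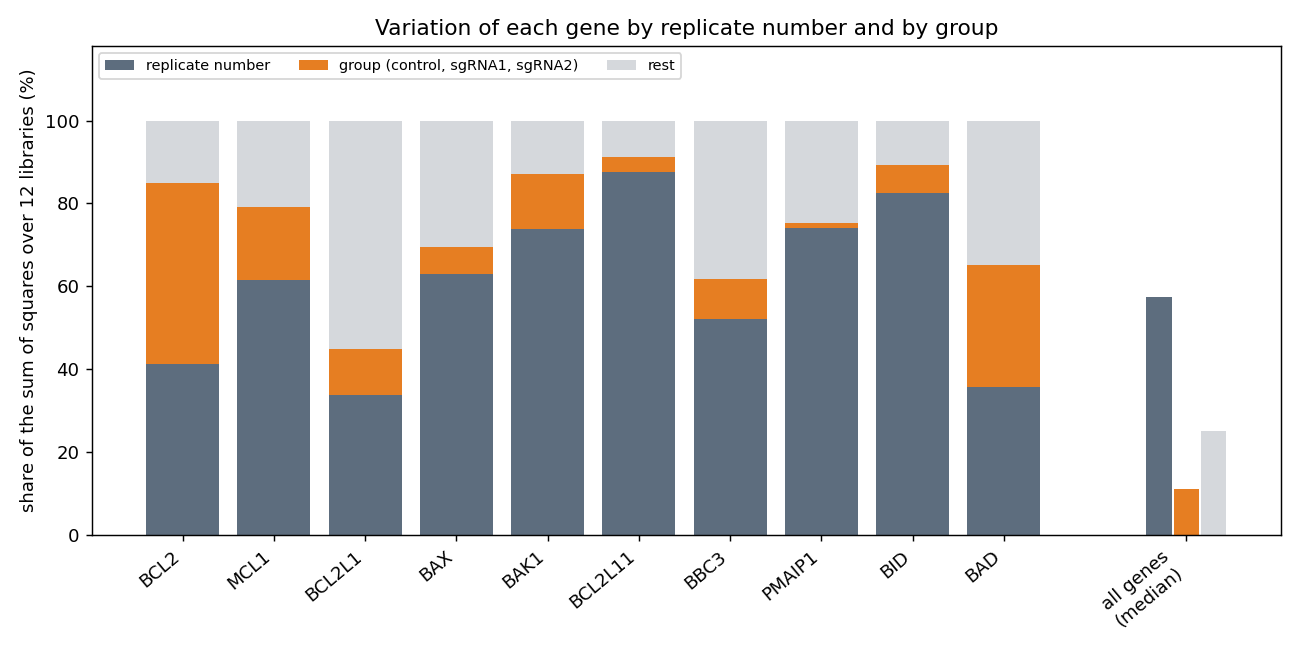
Stacked bars give the share (%) of each member's sum of squares over 12 libraries taken by replicate number (dark), group (orange) and the rest (light), and the narrow bars at the right give the median of each share over all genes tested. The group share is larger than the number share in BCL2 and smaller in the other 9 members.

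The levels of the members in control cells can be compared roughly once divided by exon length. This length joins the exons of all annotated transcripts of a gene, and which transcripts the cells express was not examined. As rlog minus log2 of the annotated exon length in kb, MCL1 was highest at 9.42, followed by BAX at 8.69, BID at 7.60, BAK1 at 7.12, BCL2 at 7.00, BCL2L11 at 6.83, PMAIP1 at 6.48, BBC3 at 5.90, BCL2L1 at 5.18 and BAD at 3.80. The ranges over the 4 control libraries overlapped for BAK1 and BCL2, for BCL2 and BCL2L11, and for BCL2L11 and PMAIP1. All other neighbours in this order were separated by these ranges, which leave out any error in the length. By this measure the survival gene MCL1 stood highest and the survival gene BCL2L1 next to lowest.

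Several of these levels rest on exons shared with another gene. Of the annotated exon bases of BCL2L1, 43.0% lie on the antisense gene ABALON, and for BAD 23.7% lie on GPR137 of the opposite strand. For BCL2L11 10.9% lie on the antisense transcript MIR4435-2HG. The counting is not stated to have used strand, so reads in these stretches cannot be assigned with certainty. BCL2 shares no exon base with another annotated gene. It lies on chromosome 18 from 63123346 to 63320128 on the minus strand (GRCh38), with 11765 exon bases in 3 blocks.

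**Figure D4:**
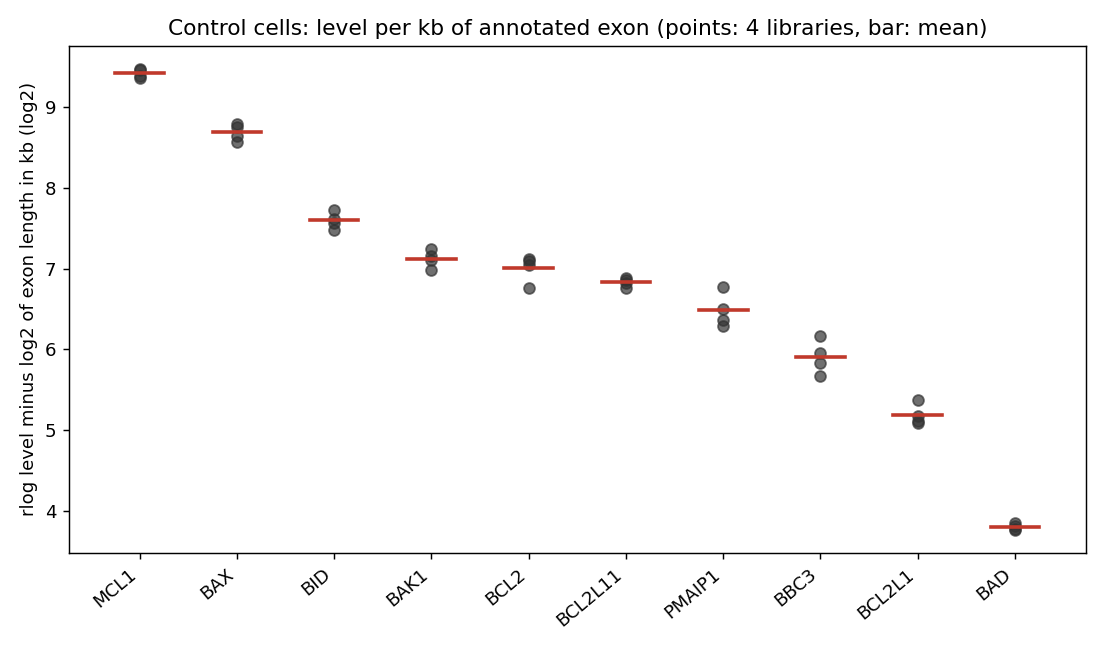
Points give the rlog level minus log2 of the exon length in kb (log2 units) in each of the 4 control libraries and the bar their mean, with the members ordered by mean. MCL1 is highest at 9.42 and BAD lowest at 3.80, and the points of BAK1, BCL2, BCL2L11 and PMAIP1 overlap from neighbour to neighbour.

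The members did not move as a unit across the libraries. Over the 45 pairs of members the Pearson correlation of rlog over the 12 libraries ran from -0.70 (BBC3 with PMAIP1) to 0.83 (PMAIP1 with BID), with a median of 0.19, and 29 pairs were positive. These correlations are descriptions, since all genes share libraries and replicate numbers. Pairs of other genes were not computed, so whether the members were more or less alike than other genes is not known. The most similar gene of each member was picked as the largest r among all genes tested, and this picking alone makes r high. For BCL2 the gene with the most similar pattern was ACACA, the acetyl-CoA carboxylase of fatty acid synthesis (r = 0.96, 12 libraries). For MCL1 it was the RNA helicase gene DDX31 (r = 0.93), for BCL2L1 KDM8 (0.92), for BAX METRN (0.91) and for BAK1 GLYR1 (0.97). For BCL2L11 it was CSRNP2 (0.95), for BBC3 PPFIA3 (0.97), for PMAIP1 the proteasome ATPase gene PSMC5 (0.97), for BID the Arp2/3 subunit gene ARPC5L (0.97) and for BAD SH2B1 (0.90).

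Of 13 other BCL2 family genes 9 were tested, and BCL2L10, BCL2L14, BCL2L15 and BOK had a mean under 4. None passed without the block in limma, where the smallest adjusted p was 0.372. With the block 1 of the 9 rose, against 2.53% of all genes. This was BCL2A1, a survival protein of myeloid cells also called BFL1. Its level was 4.84, 4.76, 4.80 and 4.93 in control, 4.96, 4.91, 5.07 and 5.17 with sgRNA1, and 4.97, 4.92, 5.26 and 5.02 with sgRNA2. It was higher in 8 of 8 same-numbered differences, by 0.20 on average, though control library 4 lay among the libraries with a guide. Of all genes 4.33% were higher in all 8. The SE was 0.06 (adjusted p = 0.372 in limma), and 0.05 with the block (adjusted p = 0.0142 in limma). BCL2A1 was named because it passed with the block, which rests on these differences, so their shared sign is no separate support. The call was kept in 13 of 16 blocked fits with a library or number left out and lost without control library 3 (adjusted p = 0.127 in limma), number 1 (0.0561) or number 3 (0.0587). BCL2 and BCL2A1, both survival genes, thus differed in opposite directions. The rlog level of BCL2A1 was the lower one, but its exon length was not taken into account, so the mRNA amounts of the genes were not compared.

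In the mitochondrial partners and modifiers, 0 of 14 passed without the block and 1 rose with it, against 2.53% of all genes. This was PIM1, a kinase that phosphorylates BAD. Its level was 9.91, 9.79, 9.18 and 9.15 in control, 9.95, 9.92, 9.65 and 9.64 with sgRNA1, and 9.93, 9.87, 9.65 and 9.75 with sgRNA2. Controls 3 and 4 stood well below every other library. The mean difference was 0.29 (SE 0.13, adjusted p = 0.648; with the block SE 0.06, adjusted p = 0.00991 in limma). It was 0.02 to 0.13 in numbers 1 and 2, and 0.48 to 0.59 in numbers 3 and 4. The blocked call was kept in 13 of 16 fits and lost without control library 3 (adjusted p = 0.0750 in limma), control library 4 (0.0569) or number 4 (0.0783).

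Downstream and upstream of the family few genes moved. In the death receptor pathway 11 of 12 genes were tested, 0 passed without the block and 1 rose with it (2.53% of all genes rose). TNFRSF10B, the TRAIL receptor DR5, was higher in 8 of 8 differences (4.33% of all genes were), by 0.08 to 0.17. The mean was 0.12 (adjusted p = 0.648 in limma, and 0.0290 with the block, SE 0.03). TNFRSF10B too was named for passing with the block, so this shared sign is no separate support. That call was kept in only 6 of 16 fits with a library or number left out, with adjusted p from 0.0132 to 0.226 (limma). Of 12 genes of the apoptosome, the caspases and the released mitochondrial proteins 0 passed in either fit, with differences from -0.10 to 0.09. Of 6 inhibitors of apoptosis 4 were tested and 0 passed (-0.06 to 0.02). Of 12 transcription factors reported to drive BH3-only genes or MCL1, FOXO3 and MYC among them, 0 passed in either fit, with differences from -0.07 to 0.04. The list medians lay between -0.01 and 0.02 for the 6 lists of apoptosis and regulator genes.

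Of the 9 myeloid genes looked up, 0 passed without the block in limma and 3 passed with it, where 5.4% of all genes did. CD33, FLT3, HOXA9, MEIS1, SPI1 and PTPRC did not pass. With the block MPO, the granule peroxidase of immature myeloid cells, fell by 0.42, and CSF3R (0.23) and ITGAM (0.24), the G-CSF receptor and CD11b, rose (adjusted p = 2.63e-05, 0.00306 and 0.0148 in limma). Their part in the BCL2 and BCL2A1 differences was not tested. In bulk RNA fewer cells expressing a gene and less RNA per cell cannot be told apart.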

How the data were processed

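RNA sequencing was performed on poly(A)-selected RNA (NEBNext Ultra, 37 bp paired reads, NextSeq). The authors' processing notes name STAR 2.7.5a, HTSeq 0.6.1pl, Picard 2.9.4, bcl2fastq 2.20.0.422 and DESeq2, and the build GRCh38. Duplicates were removed according to the name of the table, which lowers abundant transcripts most. The authors deposited rlog (log2) values for 19755 protein-coding genes, of which 3669 had 1 value throughout. It is not stated whether rlog was run blind to group. Deposited tables of log2 fold changes and p-values were not used.

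Genes with a mean rlog of at least 4 entered limma 3.58.1 under R 4.3.3 (trended eBayes). Two-sided p-values were adjusted by Benjamini-Hochberg over the 10982 genes tested, at a threshold of 0.05. A 2-level model set both guides against control and a 3-group model each guide, and the main fits had no block. The fit was tested on simulated data. In all 12 pairs of same-numbered libraries, deviations from group means had correlations of 0.38 to 0.78 (-0.74 to 0.75 in 36 pairs of different numbers and groups). The numbers were taken to pair libraries, from the data alone, and blocked values are given. Some libraries of different numbers were as alike as those of the same number, so these correlations do not single out the number as the unit of pairing. The block was chosen from the same values that it was used to test, and calls that need it carry this limit. The block, filters, quantile scaling, eBayes without a trend and libraries left out were tried as alternatives. YBX1 was tested with SciPy 1.17.1. Exon lengths and overlaps came from a GENCODE annotation on GRCh38, and all 10 members matched.

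The members, gene lists and tests were chosen with earlier results of these data known. All members were named, with YBX1, the most correlated gene of each member, and list genes passing for both guides in either fit, up to 6 a list. The lists were other BCL2 family, apoptosome and caspases, inhibitors of apoptosis, death receptor pathway, mitochondrial partners and modifiers, transcription factors, and myeloid and other cell type markers, for which passing genes are also named. One marker of other cell types is not reported here.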

Additional observations from a re-analysis of the deposited data

How the results depend on the processing

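Without the block, 0 members passed for both guides, either guide or sgRNA2 against sgRNA1 under every alternative run (filters, quantile scaling, eBayes without a trend, the 3-group model, pairs of numbers, and each library left out), and the adjusted p of BCL2 lay between 0.217 and 0.745 over 20 such fits for both guides. The replicate block, the pairing by number, raised the count from 0 to 1 (BCL2) for both guides, for sgRNA1 and for sgRNA2, and changed no other member's call. The block with each number left out gave 1 in each fit for both guides and for sgRNA2, and 1 without number 3 for sgRNA1. Fits chosen after seeing the data added the block to each library left out (1, but 2 with BBC3 without control library 4 and 0 without control library 3), to quantile scaling (1, BCL2 -0.21, adjusted p = 0.0118 in limma) and to no filter (1, adjusted p = 0.0345 in limma). BCL2 stayed below control in all 38 alternatives (-0.31 to -0.18).

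BCL2L1, PMAIP1 and BID changed sign in some fits, none past the threshold. With 1 library left out, BCL2L1 ranged from -0.0889 to 0.00360 (the latter without control library 1), PMAIP1 from -0.0847 to 0.0743 (0.0743 without control library 1, 0.00867 without sgRNA1 library 3) and BID from -0.00421 (without control library 3) to 0.0786. PMAIP1 was also 0.0358 with the block without number 1 and 0.0386 in numbers 3 and 4 alone. A filter at a mean of 6 leaves out BAD. The genes called among all tested for both guides were 11, against 593 with the block, 273 with the block and no filter, 5 with no filter, and 4 to 10 with 1 library left out. They were 1 in numbers 1 and 2 alone and 74 in numbers 3 and 4 alone. Without control library 1 and with the block 153 were called, and without control library 3 192. YBX1 differed from control by -1.37 to -1.23 with any library left out, and p was 0.0247 in the exact permutation within numbers, the replicate block for this gene. With quantile scaling 8 rather than 9 members had a larger share for the number than for the group. Unknown depth limits what can be said of BAD and BCL2A1.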
